A study of Mus musculus with 2 samples.

Results

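The genes described here are 8 transcription factor genes that mark intestinal identity, namely Hnf4a, Hnf4g, Cdx1, Cdx2, Foxa1, Foxa2, Foxa3 and Creb3l3, of 22380 protein-coding genes. They were taken as a list of names. Their open chromatin comprised 90 of the 90445 regions called in control enteroids and 76 of the 71282 regions called in Taf4-inactivated enteroids, these being all peaks that touched a gene body or the 50 kb on either side of it. A peak no farther than 1 kb from any start site annotated for the gene was a start site peak, and the others were called distal. Start sites of the same gene less than 1 kb apart were taken as 1 promoter, which gave 13 promoters, since Hnf4a, Hnf4g and Creb3l3 have several.

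ATAC-seq maps open chromatin through a transposase that inserts sequencing adapters into accessible DNA. Enteroids are epithelial cultures grown from intestinal crypts, in this case from the ileum of mice 4 months old on a C57Bl6/129sv background. Control enteroids carried Taf4 lox/lox without Cre, and Taf4-inactivated enteroids carried Taf4 lox/lox::VilCreERT2, in which the villin promoter drives a Cre recombinase in epithelial cells that becomes active upon 4-hydroxytamoxifen (4-OHT). Both cultures received 1 µM 4-OHT for 3 days, so the drug was common to both and Cre was not. The comparison asks how chromatin at these genes differed shortly after loss of Taf4, which encodes part of the TFIID complex at core promoters. There was 1 library per genotype, no difference could be tested, and each one describes these 2 libraries.

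HNF4 factors are nuclear receptors, CDX factors are caudal-type homeodomain proteins and FOXA factors are winged-helix proteins that can bind closed chromatin. In the gut epithelium they occupy many enhancers together and sustain the enterocyte programme, including lipid absorption and brush border genes. Creb3l3, also called CREBH, encodes a membrane-bound leucine zipper factor of liver and small intestine that is released by proteolysis and acts on genes of lipid and lipoprotein metabolism. Hnf4a is transcribed from a distal promoter, P2, and a proximal one, P1, and the adult intestine is known to use both.

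The fold enrichment of a peak, which is its signal over the background of the same library, cannot be set directly against that of another library. The median fold was 2.03 in control and 2.45 in Taf4-inactivated enteroids, while the control library was estimated to be 1.65 times deeper. Each peak was therefore given its percentile by fold within its own list, where 100 is the highest, and a difference is the percentile after Taf4 inactivation minus that in control, in points. Peaks that overlapped each other best were treated as a matched pair. A difference was called when it reached 25 points, or when the fold ratio, divided by the median ratio of 1.21 over all 42491 pairs, passed 1.5 or fell under its inverse. The Taf4a start site was at percentile 74.7 in control and 58.7 after inactivation, which does not report on the floxed exons. The 6 epithelial markers (Epcam, Cdh1, Vil1, Krt8, Krt18 and Cldn7) were open at the start site in both lists. A start site peak is not a measure of expression, and of 20 markers of other cell types, whose values stand beside the FOXA genes, 9 also had one in both lists and 8 had none in either. Fewer open cells and less accessibility per cell cannot be told apart in such bulk libraries.

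At least 1 promoter was open in control enteroids for 7 of the 8 genes, Creb3l3 being the exception, and in Taf4-inactivated enteroids for all 8. With promoters of protein-coding transcripts alone, it was 7 of the 8 genes and 9 of 12 promoters in both lists, since the one opened at Creb3l3 has no coding transcript. Over all protein-coding genes 68.4% had a start site peak in control, 65.5% after inactivation and 62.7% in both. By promoter, 9 of the 13 were open in control and 10 after inactivation, and 3 were open in neither. The 9 promoters open in both formed matched pairs, of which 5 ranked lower and 4 ranked higher after inactivation. Their median difference was -9.07 points, beside -2.88 points over all 14050 start site pairs. Foxa2 alone passed 25 points, and it was lower. Over all start site pairs 17.0% passed that limit in either direction, 1412 of them downward and 974 upward. None of the 9 pairs passed the limit on the centred fold ratio, beside 0.0641% of all start site pairs downward and 1.28% upward.

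**Figure D1:**
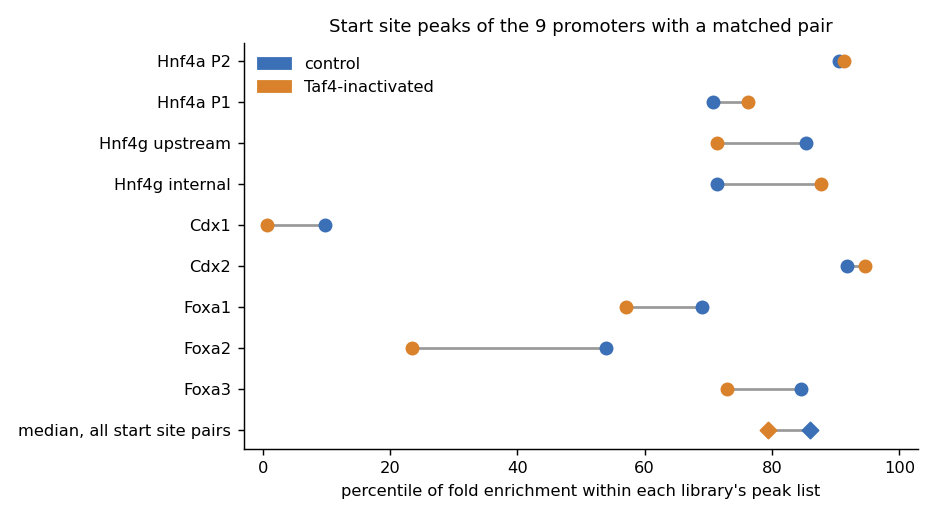
Percentile of fold enrichment (x axis) of the start site peak in control (blue) and Taf4-inactivated (orange) enteroids for the 9 promoters with a matched pair, with the medians over all start site pairs as diamonds, 1 library per genotype. Hnf4a P2 and Cdx2 stayed above percentile 90 in both lists, and Foxa2 moved from 53.9 to 23.5.

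The start site peaks of the HNF4 genes were present in both lists, with a slightly higher rank after inactivation at both Hnf4a promoters and opposite differences at the Hnf4g promoters. At Hnf4a P2, the peak was at chr2:163332123-163332896 on mm9 in control, with a fold of 2.60 at percentile 90.5, and at chr2:163332145-163332825 after inactivation, with a fold of 3.79 at percentile 91.3. At P1, the peak went from chr2:163372242-163373348, percentile 70.7, to chr2:163372533-163373287, percentile 76.2. P2 thus ranked above P1 in both lists, and neither moved by more than 5.48 points. The P1 peak was trimmed on its upstream side, beginning 311 bp before the start site in control and 20 bp before it after inactivation. The other 2 annotated Hnf4a promoters, a start site between P2 and P1 and one downstream of P1, had no peak within 1 kb in either list.

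Hnf4g encodes the HNF4 paralogue that acts redundantly with Hnf4a in enterocytes. Its upstream promoter had a peak at chr3:3507727-3508350 in control, percentile 85.3 and fold 2.41, and at chr3:3507707-3508820 after inactivation, percentile 71.3 and fold 2.85. Its internal promoter went the other way, from percentile 71.4 and fold 2.19 at chr3:3634019-3634257 to percentile 87.7 and fold 3.53 at chr3:3633940-3634290. The upstream promoter thus led in control and the internal one after inactivation. After centring on all pairs, the log2 fold ratios were -0.04 for the upstream promoter and 0.41 for the internal one. The upstream difference was thus small in fold. Ranked against start site peaks alone, the internal promoter was 25.2 points higher after inactivation, which would be called. Both Hnf4g peaks were wider after inactivation, from 624 to 1114 bp upstream and from 239 to 351 bp at the internal promoter.

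The upstream promoters of both HNF4 genes shared a stretch of sequence. Among the 66 pairs of the 12 member promoters compared, all but that of Cdx1, the longest run of bases common to 250 bases before the start site was 13 bases long and belonged to Hnf4a P2 and the upstream Hnf4g promoter. It began 52 bases before the start site of the former and 53 bases before that of the latter. The next longest run in any pair had 11 bases, and the median was 8. The same 13 bases, on either strand, occurred in 0.00714% of 70021 such stretches before the start sites of protein-coding genes, those being 5 stretches of 4 genes (Hnf4a, Hnf4g, Cyp2c68 and Glis1). The run was found by this search and not taken from a list of sites. Its share includes the promoters that gave it and does not test whether the run is special. Both stretches are shown 5′ to 3′ on the plus strand of NCBIM37 (mm9), with the shared run in capitals.
Hnf4a P2, chr2:163332294-163332543: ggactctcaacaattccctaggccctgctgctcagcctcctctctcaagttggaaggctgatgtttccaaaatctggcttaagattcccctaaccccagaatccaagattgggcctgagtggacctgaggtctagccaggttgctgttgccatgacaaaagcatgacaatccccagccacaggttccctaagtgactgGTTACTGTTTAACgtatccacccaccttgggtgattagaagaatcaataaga
Hnf4g upstream promoter, chr3:3507780-3508029: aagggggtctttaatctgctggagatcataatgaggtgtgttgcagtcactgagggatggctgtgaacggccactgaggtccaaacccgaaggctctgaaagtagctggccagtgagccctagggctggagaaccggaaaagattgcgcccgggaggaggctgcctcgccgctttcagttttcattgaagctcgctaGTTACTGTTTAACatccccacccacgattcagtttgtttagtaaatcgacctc

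Promoters from 250 bases before to 50 bases after the start site were searched on both strands for recognition letters of HNF4 (CAAAGTCCA), CDX factors (TTTATGG and the variant TTTATTG), FOXA factors (TGTTTAC), AP-1 (TGANTCA), the GATA factors (AGATAA), cyclic AMP response elements (TGACGTCA and the variant TGACGTGG) and the TATA box (TATAAA). Matches of different strings may overlap. GATA letters were in 4 of the 13 promoters, or 30.8% beside 9.62% of the windows at all coding start sites, namely in both open Hnf4a promoters, the internal Hnf4g promoter and the internal Creb3l3 promoter. In a window of 500 bases on each side the shares were closer, at 46.2% and 29.8%. HNF4 and cyclic AMP response letters were in none of the 13, and their shares over all windows were 0.457% and 2.72%. CDX letters were in 1 promoter beside 5.69% of all windows. That promoter was the internal one of Hnf4g, which ranked higher after inactivation, with CDX letters 214 and 102 bases and GATA letters 159 bases before its start site. It is shown 5′ to 3′ on the plus strand, with these matches in capitals.
Hnf4g internal promoter, chr3:3633900-3634149: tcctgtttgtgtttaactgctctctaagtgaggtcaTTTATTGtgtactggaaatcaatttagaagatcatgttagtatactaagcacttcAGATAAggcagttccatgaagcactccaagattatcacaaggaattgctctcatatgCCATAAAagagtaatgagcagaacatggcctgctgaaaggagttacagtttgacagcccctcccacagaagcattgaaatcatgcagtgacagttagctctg

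**Figure D2:**
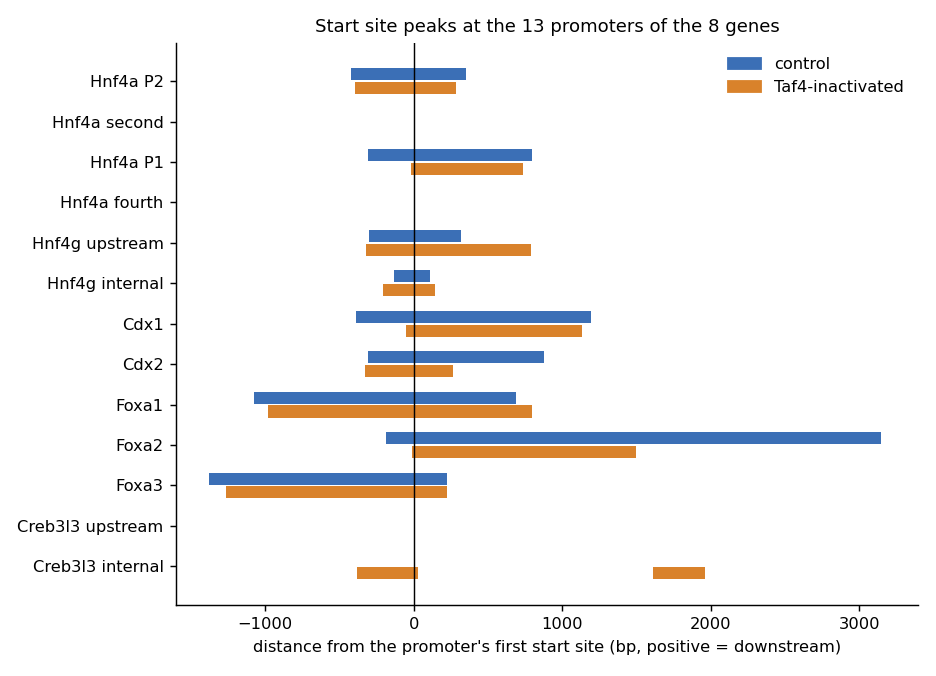
Extent of the start site peaks in bp from the first start site of each of the 13 promoters (x axis, positive values downstream), in control (blue) and Taf4-inactivated (orange) enteroids. The Foxa2 peak spanned 3338 bp in control and 1515 bp after inactivation, and the internal Creb3l3 promoter had peaks after inactivation only.

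Cdx2, which specifies the intestinal lineage, had the highest start site peak of the 8 genes in both lists. It spanned chr5:148117970-148119156 in control, with a fold of 2.66 at percentile 91.8, and chr5:148118585-148119173 after inactivation, with a fold of 4.11 at percentile 94.6. The peak was thus higher but reached less far into the gene, its width being 1187 bp in control and 589 bp after inactivation. Ranked by p in place of fold, the difference of 2.84 points turned into -4.60 points. FOXA letters were in 2 of the 13 promoters, Cdx2 and Foxa1, beside 3.05% of all windows. In Cdx2 they lay on the opposite strand, 19 bases before the start site, and the stretch before it is shown 5′ to 3′ on the minus strand of the chromosome with that match in capitals.
Cdx2 promoter, chr5:148118847-148119096: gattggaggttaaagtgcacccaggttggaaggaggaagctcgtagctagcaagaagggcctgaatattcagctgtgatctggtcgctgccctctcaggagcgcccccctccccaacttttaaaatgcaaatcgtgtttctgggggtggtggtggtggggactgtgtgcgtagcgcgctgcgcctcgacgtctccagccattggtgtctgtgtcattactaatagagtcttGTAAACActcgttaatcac

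The neighbourhood of Cdx2 held 9 distal peaks in control and 4 after inactivation, and each of the 4 had a partner in control. The pair at chr5:148110781-148111851, 7.5 kb downstream of the start site, ranked at percentile 92.9 in control and 88.1 after inactivation and was the highest in both lists. A second pair 13.9 kb downstream went from 90.8 to 79.4. Both strong downstream elements were thus retained at slightly lower ranks. The pairs on the other side, within the neighbouring gene Prhoxnb, rose from 18.3 to 74.0 at 8.1 kb and from 7.84 to 42.9 at 10.3 kb upstream. The 5 control peaks without a partner included one over the start sites of Pdx1, a pancreatic and duodenal homeobox gene, and 2210019I11Rik, at percentile 78.2 and 20812 bp from the nearest peak of the other list. The others lay at percentiles 26.3 to 57.8.

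Cdx1, the paralogue of Cdx2, had the open promoter of lowest fold in both lists. Its start site peak on chromosome 18 (61194657 to 61196239 in control, 61194718 to 61195908 after inactivation) had a fold of 1.82 at percentile 9.74 and a fold of 1.89 at percentile 0.679. Ranked by p it was at 69.7 in control, above the internal Hnf4g promoter at 62.5, and at 43.9 after inactivation. That difference was -25.8 points, which would be called, whereas by fold it was -9.07. The distal peaks of Cdx1 numbered 15 in control and 9 after inactivation, 6 of each being partnered, and none of the 6 pairs ranked lower after inactivation. Elements within or next to the gene were the highest of these pairs. The intronic one 10.4 kb from the start site ranked at 84.8 in control and 85.8 after inactivation. The other lay 17.6 kb from the start site. It was over the 3′ end of the gene in control, at 78.3, and just downstream of the gene after inactivation, at 91.9. The Cdx1 locus thus held strong elements within or next to the gene, beside a start site peak of low fold, in both lists. Its 9 control peaks without a partner were weak, with a median percentile of 5.51.

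The FOXA genes had a lower rank after Taf4 inactivation at all 3 promoters, as did 9093 of all 14050 start site pairs. Foxa2, which encodes a pioneer factor of endoderm, went from a fold of 2.05 at percentile 53.9 to 2.20 at percentile 23.5, a difference of -30.5 points. Its start site peak contracted from chr2:147869556-147872893 to chr2:147871206-147872720, and in control it was wider than 99.9% of the list by percentile of width. Ranked by p the difference was -34.1 points, but it was -18.5 points when ranked among start site peaks alone and -19.3 points when ranked among matched pairs alone, and so was not called. The pair also overlapped over only 45.4% of the control peak. The centred fold ratio of Foxa2 was 0.884, short of the limit.

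Foxa1, the related pioneer factor, ranked at 69.0 (chr12:58646418-58648184) and 57.0 (chr12:58646315-58648093), with folds of 2.16 and 2.55. Foxa3, a family member of liver and gut, ranked at 84.6 (chr7:19608666-19610269) and 72.9 (chr7:19608667-19610153), with folds of 2.39 and 2.90. Their differences of -12.0 and -11.7 points lay within the 10th to 90th percentile of all start site pairs, from -25.1 to 17.9 points. Both promoters kept their peak width, 1767 and 1779 bp at Foxa1 and 1604 and 1487 bp at Foxa3. Foxa3 carried TATA letters 37 bases before its start site. Such letters, at any position, were in 11.3% of all windows and in 1 other member promoter, that of Cdx1. After centring on all pairs, the log2 fold ratios were -0.05 for Foxa1, -0.18 for Foxa2 and 0.00 for Foxa3, so the size of each difference in fold was small.

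All distal pairs of Foxa1 and Foxa2 ranked lower after inactivation as well, as did 15322 of all 26898 distal pairs. All 5 pairs of Foxa1 had a lower rank, by between -6.42 and -36.8 points, and the one called lay at the start site of the neighbouring gene Ttc6. The highest Foxa1 pair, 40.7 kb downstream at chr12:58606298-58606615 in control, went from percentile 92.3 to 72.9. Both Foxa2 pairs lay in introns of 9030622O22Rik, the annotated gene downstream, and had differences of -17.6 and -15.4 points. The stronger one, at chr2:147818707-147819481 in control and 53.6 kb from the Foxa2 start site, went from percentile 96.4 to 78.8. It is shown because it held HNF4 letters, on the opposite strand and in capitals here, within 129 bases of the plus strand. HNF4 letters were in the central 300 bases of 1 of 65 distal peaks of the 8 genes after inactivation, which was this one. None of 81 in control held them there. Over all distal peaks away from annotated start sites the shares were 1.72% and 0.839%. Of the 65 and 81 peaks, 15 and 18 lay at start sites of other genes. The paired control peak held the same letters outside its central 300 bases.
Foxa2 distal element, chr2:147819198-147819326: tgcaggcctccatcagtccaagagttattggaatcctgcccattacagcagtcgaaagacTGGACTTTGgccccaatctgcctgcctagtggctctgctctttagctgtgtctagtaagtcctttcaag

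Several markers of other cell types also ranked lower after inactivation. Of the 20, 12 had a start site peak in control and 8 formed pairs, 5 of them lower, 4 by at least 25 points, and 3 higher. Over all 14050 start site pairs 9093 were lower, 1412 of them by at least 25 points. Of the 5 mesenchymal markers, Acta2 had no start site peak in either list, and the other 4 ranked from 10.7 to 81.9 in control and from 18.1 to 53.2 after inactivation. Among these Pdgfra fell by 41.0 points and Des fell by 28.7 points, Col1a2 differed by -22.7 points and Col1a1 by 7.36 points. Kdr, an endothelial marker, fell by 57.1 points, while Pecam1 had a peak in control only, at 21.8, and Cdh5 none. Of the pancreatic markers Ptf1a fell by 26.3 points, Ins2 differed by 2.05 points, and Pdx1 had a peak in control only, at 78.2. The liver marker Ttr was at 88.5 and 88.7, and Alb and Afp had none. Of the stomach markers Sox2 had peaks that formed no pair, at 91.2 and 38.1, and Tff1 and Gkn1 had none. The immune marker Cd68 had a peak in control only, at 10.7, and Ptprc and Cd3e had none. Of the 6 epithelial markers 3 ranked lower and 3 higher, and Krt18 alone passed the limit, where it fell by 32.3 points. Their part in the ranks of the FOXA genes was not tested.

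Distal pairs of Foxa3 went in both directions, and those that rose lay at start sites of other genes. Of its 10 control and 6 Taf4-inactivated distal peaks, 3 formed pairs within the window. The pair at the start site of the neighbouring gene Mypop, 31.9 kb downstream, rose from a fold of 1.93 at percentile 29.2 to a fold of 3.54 at percentile 87.8. It was the only distal pair of the 8 genes past the limit on the centred fold ratio, at 1.51-fold, and the peaks overlapped by 617 of 1633 bp of the control peak. The other pairs of the Foxa3 locus lay below percentile 7 in both lists. The one at a start site of Irf2bp1 differed by 3.80 points, and the one away from other start sites by -3.45 points. A control peak in an intron of Sympk, 5.9 kb upstream at chr7:19614539-19614980 and percentile 72.3, had no partner.

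Creb3l3 was the gene whose promoters differed in presence. Its upstream promoter, with its first start site at position 80561619 of chromosome 10, had no peak within 1 kb in either list. The nearest peak lay in an intron. Counted from the promoter's other annotated start site, at 80561499, it was 2990 bp downstream in control (chr10:80557999-80558509, percentile 93.4). After inactivation it was 3001 bp downstream of that site (chr10:80557917-80558498, percentile 91.8). The locus thus had a strong intronic element beside an uncalled promoter. The internal promoter, annotated for transcripts without a coding product, had no control peak and 2 peaks after inactivation. One covered its start site at chr10:80555291-80555702, with a fold of 2.53 at percentile 55.9 and a −log10 q of 6.15, and the other, at chr10:80553357-80553708, was at percentile 0.325. Neither had a partner, and the nearest control peak was the intronic one, 2679 bp upstream of that start site. The upstream promoter, which was closed by this measure, is shown 5′ to 3′ on the minus strand. Its AP-1 letters, 53 bases before its first start site, are in capitals. Such letters were in 6.60% of all windows.
Creb3l3 upstream promoter, chr10:80561620-80561869: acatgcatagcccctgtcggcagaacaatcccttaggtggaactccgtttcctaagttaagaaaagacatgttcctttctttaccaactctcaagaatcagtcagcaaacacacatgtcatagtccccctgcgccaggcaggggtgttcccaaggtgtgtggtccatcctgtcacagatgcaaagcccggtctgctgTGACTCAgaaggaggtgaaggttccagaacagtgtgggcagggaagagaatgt

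Together the 8 genes had 81 distal peaks in control and 65 after inactivation. Of these, 48 control peaks, or 59.3% (exact 95% interval 47.8 to 70.1%, counting error only), had a partner in the other list, as did 47 or 72.3% (59.8 to 82.7%) of those after inactivation. Over the distal peaks of all protein-coding genes the shares were 51.2% and 64.2%. The higher share after inactivation depended on which peaks were counted. With a −log10 q of at least 2 in both lists, 73.8% of 42 control peaks and 58.5% of 53 peaks after inactivation had a partner, and with at least 5, 86.7% of 15 and 52.0% of 25 (limits applied to the values before rounding). The same turn was seen over all genes, where at least 5 gave 92.6% and 44.4%. Distal peaks that passed this stricter limit were thus more numerous after inactivation at these 8 genes, as they were over all protein-coding genes, with 22310 in control and 46658 after inactivation when a peak is counted once for each gene near it.

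**Figure D3:**
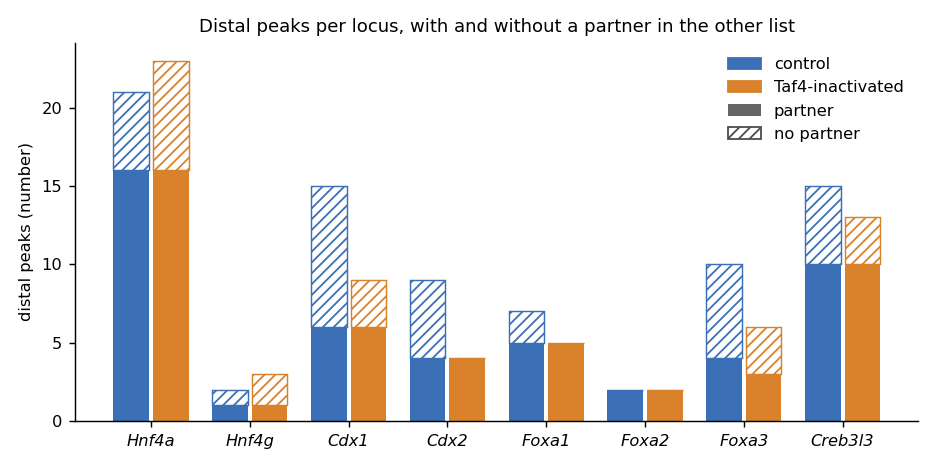
Number of distal peaks (y axis) of each gene in control (blue) and Taf4-inactivated (orange) enteroids, filled where a peak overlaps one of the other list by at least 1 bp and hatched where none does. Hnf4a had 21 and 23, and the 4, 5 and 2 peaks of Cdx2, Foxa1 and Foxa2 after inactivation all had a partner.

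The number of distal peaks per locus ranged widely. Hnf4a had the highest number, with 21 in control and 23 after inactivation, or 12.6 and 13.8 per 100 kb, which ranked at percentile 91.7 and 98.7 of protein-coding genes. Per 100 kb in control, Creb3l3 (13.1) and Cdx1 (12.8) were slightly denser, each with 15 control peaks. Creb3l3 had 13 after inactivation, and 6 of its peaks in each list lay at start sites of neighbouring genes, whereas none of the Cdx1 peaks did. Hnf4g had 2 and 3 in the broadest window, 251.7 kb, and ranked at 13.4 and 22.4. Hnf4a and Hnf4g had more distal peaks after inactivation, Foxa2 had 2 in both lists and the others had fewer, and the median over protein-coding genes was 8 in control and 6 after inactivation. With a −log10 q of at least 2, Cdx1 (4 and 6) and Creb3l3 (8 and 12) also had more after inactivation.

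**Figure D4:**
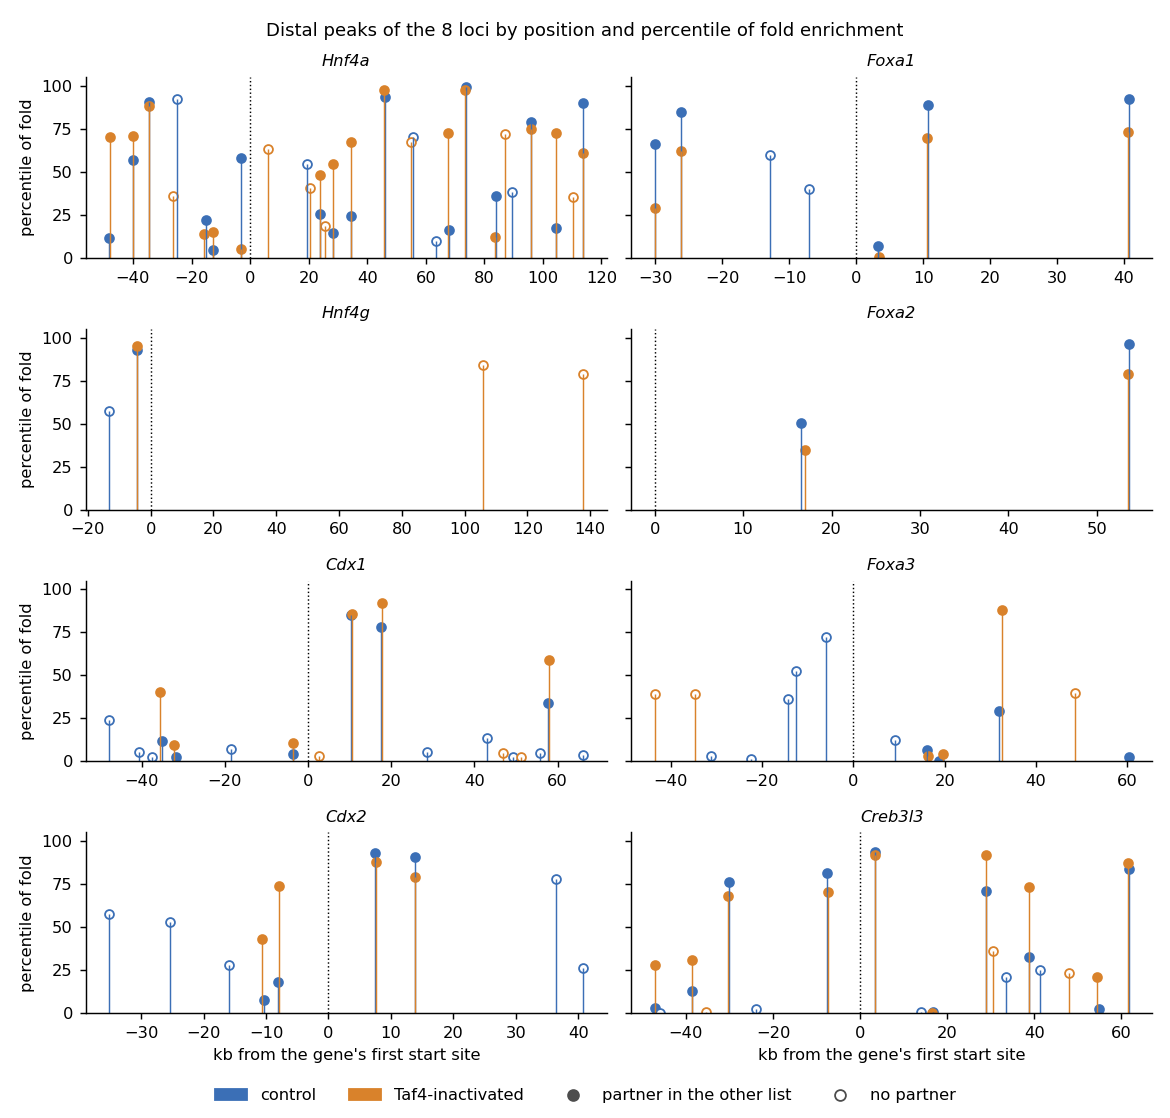
Distal peaks of the 8 loci by distance in kb from the first start site (x axis, positive values downstream) and by percentile of fold enrichment (y axis), in control (blue) and Taf4-inactivated (orange) enteroids, filled with and open without a partner in the other list. At Hnf4a the pairs at 46.0 and 73.7 kb stood above percentile 93 in both lists.

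At Hnf4a, 16 pairs were matched, and the pairs of highest fold kept a high rank. The highest in both lists lay 73.7 kb downstream of P2, beyond the gene, at chr2:163405912-163406572 in control (fold 3.58, percentile 99.2) and chr2:163405763-163406392 after inactivation (fold 4.59, percentile 97.6). The next by fold after inactivation lay 46.0 kb from P2 over a coding exon, at percentile 93.7 in control (chr2:163377961-163379072) and 97.4 after inactivation (chr2:163378217-163378731). Both elements were thus among the top peaks of each list. Not all strong control peaks were retained alike. One at percentile 92.3 had no partner, and one at 89.8 was paired with a peak at 60.7. CDX letters were in the central 300 bases of 9 of the 81 control distal peaks of the 8 genes and 10 of the 65 after inactivation. These shares were 11.1% and 15.4%, beside 7.02% and 8.59% of all distal peaks away from annotated start sites. Of the 81 and 65, 18 and 15 lay at start sites of other genes, so the sets are not alike. The downstream element held CDX letters on both strands, at bases 2 and 45 of its central 280 bases. That stretch is shown on the plus strand with the matches in capitals.
Hnf4a downstream element, chr2:163406103-163406382: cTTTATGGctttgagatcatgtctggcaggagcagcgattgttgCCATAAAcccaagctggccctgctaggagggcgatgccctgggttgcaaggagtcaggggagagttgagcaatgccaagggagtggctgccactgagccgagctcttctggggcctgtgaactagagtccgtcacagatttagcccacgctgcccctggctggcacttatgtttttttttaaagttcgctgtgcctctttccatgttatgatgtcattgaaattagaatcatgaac

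Other elements of Hnf4a shifted in rank in both directions. The pairs at -48.1 kb (percentile 11.4 in control and 70.3 after inactivation), 28.2 kb (14.3 and 54.8), 34.4 kb (24.1 and 67.3), 67.8 kb (16.0 and 72.4) and 104.6 kb (17.6 and 72.7) rose past 25 points. Of these, the pair at 34.4 kb lay at a start site of 0610008F07Rik, a transcript that overlaps Hnf4a, and the pair at 104.6 kb at a start site of Ttpal. Those at -3.1 kb (58.2 and 5.34) and 113.8 kb (89.8 and 60.7) fell past it. The 5 that rose were thus all in the lower part of the control list. At Hnf4g the single pair, 4.2 kb upstream at chr3:3503551-3504128 in control, went from percentile 92.7 to 95.1. For Creb3l3, the intronic pair described above had the highest fold in both lists, and the start site of the neighbouring gene Thop1 went from percentile 70.7 to 91.7.

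Across the 47 distal pairs of the 8 genes, 11 rose and 3 fell by at least 25 points, beside 12.2% and 19.1% of all 26898 distal pairs. The pairs of that background all lay away from annotated start sites. Of the 34 member pairs away from start sites of other genes, 7 rose and 2 fell, or 20.6% and 5.88%, and their median difference was 1.65 points beside -2.92 points over all distal pairs. The centred fold ratio passed 1.5 in 1 of the 47 pairs and its inverse in none, beside 1.84% and 0.0855% of all distal pairs. None of the 34 pairs away from other start sites passed either limit. Of those that rose, 5 were at Hnf4a, 2 at Cdx2, 2 at Creb3l3, and 1 each at Cdx1 and Foxa3. All that rose past the limit ranked at 32.5 or lower in control, and all that fell past it at 58.2 or higher. The background was not matched for rank in control, and the part of that rank was not tested.

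**Figure D5:**
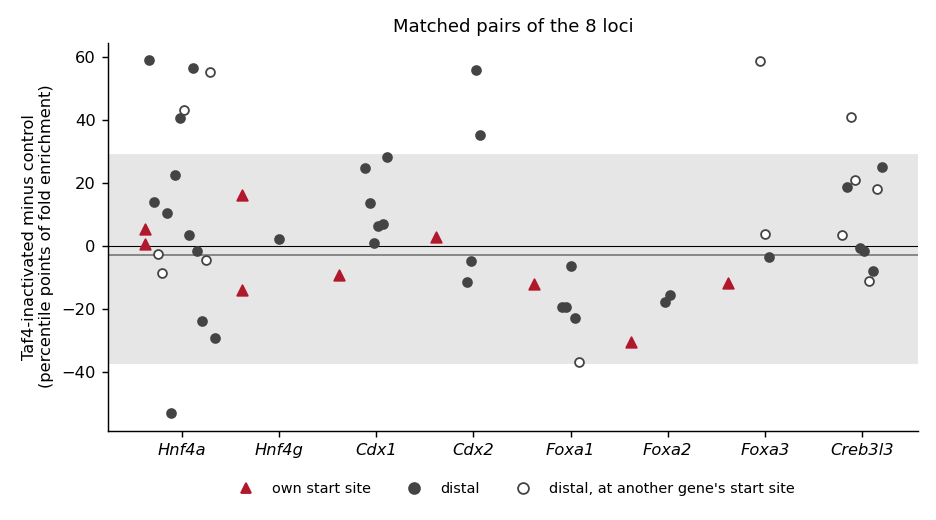
Difference in percentile of fold enrichment, Taf4-inactivated minus control (y axis, points), of each matched pair of the 8 genes, with start site pairs as triangles, distal pairs as filled circles and distal pairs at another gene's start site as open circles. The grey band spans the 10th to 90th percentile of all distal pairs, from -36.9 to 28.8, with the median as a grey line, and all pairs of Foxa1 and Foxa2 lie below 0.

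The distal peaks without a partner ranked lower than the others when the 8 genes were pooled. Their median percentile was 23.9 in control and 37.7 after inactivation, beside 34.9 and 68.2 for those with a partner. Single loci differed, since at Hnf4a in control the median was 54.8 without and 30.7 with a partner. At Foxa3 it was 24.2 and 4.63 in control, and 39.4 and 4.19 after inactivation. The highest peak without a partner in control lay 24.8 kb upstream of Hnf4a at chr2:163307511-163307903, at percentile 92.3 with a −log10 q of 5.76, and the nearest peak of the other list was 926 bp away. The highest after inactivation were 2 intronic peaks of Hnf4g, at chr3:3613688-3613948 (percentile 84.3) and chr3:3645689-3645909 (percentile 79.0), which were 20071 and 11432 bp from any control peak. The others named by the same rule were, in control, peaks at Hnf4a in a coding exon 55.8 kb from P2 (70.5) and at Foxa1 12.9 kb upstream (59.5), beside those at Pdx1 and Sympk given above. After inactivation they were 3 peaks at Hnf4a, 87.2 kb (71.8), 54.9 kb (67.4) and 6.2 kb (63.0) downstream of P2. The peaks at 55.8 and 54.9 kb were 504 bp apart, so that a peak of each list lay in the same part of the gene.

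Other factors of the same network also ranked mostly lower at their start sites. All 12 examined (Gata4, Gata6, Klf4, Klf5, Isx, Nr5a2, Elf3, Onecut2, Tcf7l2, Sox9, Ppara and Smad4) were open at a start site in both lists, and 10 formed pairs, 9 of them lower and 1 higher after inactivation, with a median of -12.4 points. Over all 14050 start site pairs 9093 were lower, 1412 of them by at least 25 points, with a median of -2.88 points. Isx, an intestine-specific homeobox gene, fell by 33.3 points and Sox9, a crypt factor, fell by 34.3 points, and none rose by 25 points. The highest were Klf5 in control (98.2) and Nr5a2 after inactivation (96.1), and the lowest were Klf4 in control (48.6) and Sox9 after inactivation (25.9). Foxa2, at 23.5 after inactivation, thus ranked below all 12.

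Genes known to be regulated by these factors ranked in both directions. Of 15 targets (Apoa1, Apoa4, Apob, Apoc2, Apoc3, Mttp, Fabp1, Fabp2, Vil1, Cdh17, Sis, Lct, Muc2, Heph and Fgf21), 11 had a start site peak in control and 12 after inactivation, 10 of them in both. Over all protein-coding genes, 68.4% had a start site peak in control, 65.5% after inactivation and 62.7% in both. Fabp1 and Fabp2, fatty acid binding proteins of enterocytes, had one after inactivation only, at percentiles 59.6 and 71.1, and Apoa1 had one in control only, at 23.8. Sis and Lct, brush border disaccharidases, had none in either list. Of 8 pairs, 4 ranked lower and 4 higher. Apoc3 rose by 32.7 points, from 4.98 to 37.6, and Fgf21, a hormone gene regulated by Creb3l3 in liver, by 27.7 points, from 47.8 to 75.5. Of all 14050 start site pairs, 974 rose by at least 25 points. Heph, an iron export oxidase, passed the limit on the centred fold ratio at 1.53-fold, from percentile 99.4 to 100, beside the 1.28% of start site pairs that did so. Mttp, which loads lipid onto apolipoprotein B, was the highest in control at 99.9, and Heph the highest after inactivation at 100, while Apoc3 was the lowest in control and Muc2 the lowest after inactivation, at 1.75.

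The genes nearest to Hnf4a and Cdx2 were sought over 4 values per gene, the start site percentile and the rank by distal peaks per 100 kb in each list. Nearest to Hnf4a were Fam100b at a Euclidean distance of 1.87 points, Dhx16 at 3.56 and Raver1 at 3.73. Nearest to Cdx2 were Trub1 at 3.03, 1110004E09Rik at 3.13 and Wdr59 at 3.41. Fam100b, for example, ranked at 91.5 and 90.3 by start site peak and at 90.6 and 98.2 by distal peaks, beside 90.5, 91.3, 91.7 and 98.7 for Hnf4a. These neighbours share a pattern in 2 libraries only.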

How the data were processed

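Per the labels and the study's methods, ATAC-seq libraries of 1 control and 1 Taf4-inactivated enteroid culture were demultiplexed with bcl2fastq 2.17.1.14 and mapped to mm9 with Bowtie 1.0.0, keeping uniquely mapping reads, and broad peaks were called per library with MACS2 2.1.1 without a model, with reads shifted by -100 bp and extended to 200 bp. The deposited values are a score (the −log10 q times 10, truncated to an integer), a fold enrichment ratio over the background of the library, and −log10 p and −log10 q. They were used within a list only. Treatment of duplicate and mitochondrial reads is not given in the sources used here.

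Positions were made 1-based and set against the GENCODE annotation and sequence of NCBIM37, the same build as mm9. A partner was a peak of the other list overlapping by at least 1 bp, and a pair consisted of peaks overlapping each other best. Values were computed in Python 3.11.15 (scipy 1.17.1, pandas 2.3.3, numpy 2.4.6), sequences read after indexing with samtools 1.23.1, and figures drawn with matplotlib 3.10.9. The estimate of depth rests on the background that yields both fold and p of a peak (5th percentile, narrowest 10% of peaks), as 12.1 reads in control and 7.35 after inactivation, and read totals are not known. Depth limits which weak peaks are called. Overlaps (against bedtools 2.31.1), pairs and depth were tested on simulated data with known answers. With 1 library per genotype no p-value was computed.

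Members and lists were chosen with earlier results of these data known. Named were the 8 members by promoter, for each member the pairs with the highest fold in each list, the 5 unpartnered distal peaks of highest percentile per list, listed network factors and targets past a limit or at an extreme, and the 3 genes nearest to Hnf4a and Cdx2. Other pairs of the members named here were added after their values were seen, as were the markers and the shared run. These pairs include those past a limit at Hnf4a, Cdx2, Foxa1 and Foxa3 and the Creb3l3 pair at Thop1. Distal pairs past a limit at Cdx1 and Creb3l3 were only counted. Some listed genes and a motif are not reported here. Alternatives changed the q limit, the distances, the overlap, the ranking value, the centring, the peaks used for depth and the promoter window.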

Additional observations from a re-analysis of the deposited data

How the results depend on the processing

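No paired analysis was possible because each genotype had 1 library, which also prevented leaving one out. Of 128 alternative values, 90 stayed within the limits set (1.5-fold for counts, the exact interval for shares), 35 moved beyond them and 3 changed sign, and the cause was not tested. A −log10 q of at least 2 left 42 control distal peaks, and at least 5 left 15 in control and 25 after inactivation, with start site peaks at 4 control promoters of 4 genes. The partner shares then became 73.8% in control and 58.5% after inactivation at 2, and 86.7% and 52.0% at 5, so that the difference, higher after inactivation in the whole lists, turned to -15.3 and -34.7 points. A flank of 20 kb gave 42 and 35 distal peaks and one of 100 kb gave 147 and 114. An overlap of at least 50% of both peaks gave shares of 44.4% and 55.4%, left 0 start site pairs 25 points apart of the 7 remaining, and 0 distal pairs above a centred ratio of 1.5. Ranks by −log10 p gave a median start site difference of -4.60 points and 2 calls, with Cdx2 at -4.60. Ranks among matched pairs alone, chosen after seeing the data, gave -5.30. The centred ratio of −log10 p put 2 start site pairs above 1.5 and 1 below its inverse, and 11 and 3 distal pairs, with a median log2 ratio of 0.19. With each promoter counted once per family of letters it held, a promoter window of 500 bases each side raised the count from 10 to 18. Solving depth from all peaks again gave 1.65.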
